A study of Homo sapiens with 4 samples.

Results

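The region of the caveolin genes CAV2 and CAV1 on chromosome 7 was described by its contacts in HiChIP libraries for SMC1, a core subunit of cohesin. Its members are all anchor pairs with an anchor overlapping chr7:116135000-116205000 (hg19), an interval of 70 kb, in any of 4 libraries. This gave 433 of 1125468 anchor pairs, and the interval itself held 7 of 79850 anchors. On chromosome 7 as a whole there were 113169 pairs and 6192 anchors. In HiChIP, neighbouring DNA ends are joined in fixed nuclei and the joined fragments are enriched with an antibody, and each joined fragment that is sequenced counts as a paired-end tag (PET). A PET count takes in SMC1 binding, DNA contact and DNA copy number together, and in a bulk library a contact held by more cells and one captured more often per cell cannot be told apart.

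The cells were A673, a line of Ewing sarcoma with the EWS-FLI1 fusion. The 2 STAG2-null libraries came from clones grown out of single cells after CRISPR/Cas9 editing, and the 2 wild-type libraries came from the same line. The labels do not say that libraries of a genotype were separate cultures or how many clones they stand for, so the spread between them may be technical. Depth was 682724 PETs in STAG2-null 1, 698002 in STAG2-null 2, 661881 in wild-type 1 and 765017 in wild-type 2. The region was chosen by its PET counts in these same libraries, in which a CAV1 contact was known to differ between the genotypes. Every genotype value below is therefore a description, without a test that could support it.

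Caveolin-1, the product of CAV1, is the main coat protein of caveolae, small pits of the plasma membrane, and caveolin-2, the product of the adjacent CAV2, assembles with it. TES, which encodes the focal adhesion protein testin, lies on the side of lower coordinates, and MET, which encodes the receptor of hepatocyte growth factor, on the side of higher coordinates. Cohesin extrudes DNA loops that are held at CTCF sites, and STAG2 is one of its alternative STAG subunits. EWS-FLI1 binds DNA through the ETS domain of FLI1, whose core motif is GGAA, and CAV1 is known as a gene that the fusion activates in Ewing sarcoma cells.

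The stretches of 250 bases upstream of CAV1 and CAV2 are shown because the anchor at the CAV1 start was flagged by the authors for CTCF and FLI1 and took part in most of the large contacts below. They come from RefSeq on GRCh38.p14, both on the plus strand: chr7:116524759-116525008 for CAV1, the lowest of 3 entries, and chr7:116499488-116499737 for CAV2, the lower of 2. Capitals mark the ETS core GGAA and CCCTC, a part of the CTCF motif, on either strand (TTCC and GAGGG in reverse).
CAV1: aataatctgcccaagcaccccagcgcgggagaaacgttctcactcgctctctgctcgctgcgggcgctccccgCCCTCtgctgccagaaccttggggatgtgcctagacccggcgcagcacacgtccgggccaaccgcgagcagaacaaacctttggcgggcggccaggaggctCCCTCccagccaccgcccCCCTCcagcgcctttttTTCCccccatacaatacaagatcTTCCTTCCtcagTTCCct
CAV2: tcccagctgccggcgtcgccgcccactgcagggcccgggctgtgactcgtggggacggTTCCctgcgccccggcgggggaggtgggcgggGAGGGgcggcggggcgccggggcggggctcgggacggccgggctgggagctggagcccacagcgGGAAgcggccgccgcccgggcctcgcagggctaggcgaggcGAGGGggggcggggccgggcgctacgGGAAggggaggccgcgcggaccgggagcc
The CAV1 stretch held 4 matches to the ETS core and 3 to the CTCF part at a GC content of 63.6%, and the CAV2 stretch 3 and 2 at 83.2%. All ETS core matches of CAV1 were of the reverse form and lay near its start. Such short motifs are common: of 35116 RefSeq stretches of the same length, 92.7% held the ETS core (median 3 matches) and 66.6% the CTCF part (median 1). A match is a run of letters and not a measured site.

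The region took a larger part of each STAG2-null library than of each wild-type library. It held 588 and 701 PETs in the STAG2-null libraries, against 421 and 451 in the wild-type libraries. As a share of all PETs this was 0.0861% (95% Wilson interval 0.0794 to 0.0934) and 0.100% (0.0933 to 0.108) in STAG2-null, against 0.0636% (0.0578 to 0.0700) and 0.0590% (0.0538 to 0.0646) in wild-type. The genotypes did not overlap on this scale, and neither did their intervals, which cover counting error only. The mean share was 0.0933 ± 0.0101% in STAG2-null and 0.0613 ± 0.00329% in wild-type (SD, n = 2 each), a log2 ratio of 0.61.

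Chromosome 7 as a whole also held more PETs in STAG2-null, 73721 and 74798 against 59239 and 68835 in wild-type, a log2 ratio of library shares of 0.26. Scaled to these totals, the region held 0.798% and 0.937% of chromosome 7 PETs in STAG2-null, against 0.711% and 0.655% in wild-type. The libraries of the genotypes still lay apart, but the Wilson interval of STAG2-null 1 (0.736 to 0.864) overlapped that of wild-type 1 (0.646 to 0.782). The means were 0.867 ± 0.0987% in STAG2-null and 0.683 ± 0.0392% in wild-type (SD, n = 2 each), a log2 ratio of 0.34. The 10 Mb from 110 to 120 Mb around the genes stood at 0.47, and its pairs with at most 4 PETs in all at 0.43. What part of the region's difference goes with this stretch was not tested.

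**Figure D1:**
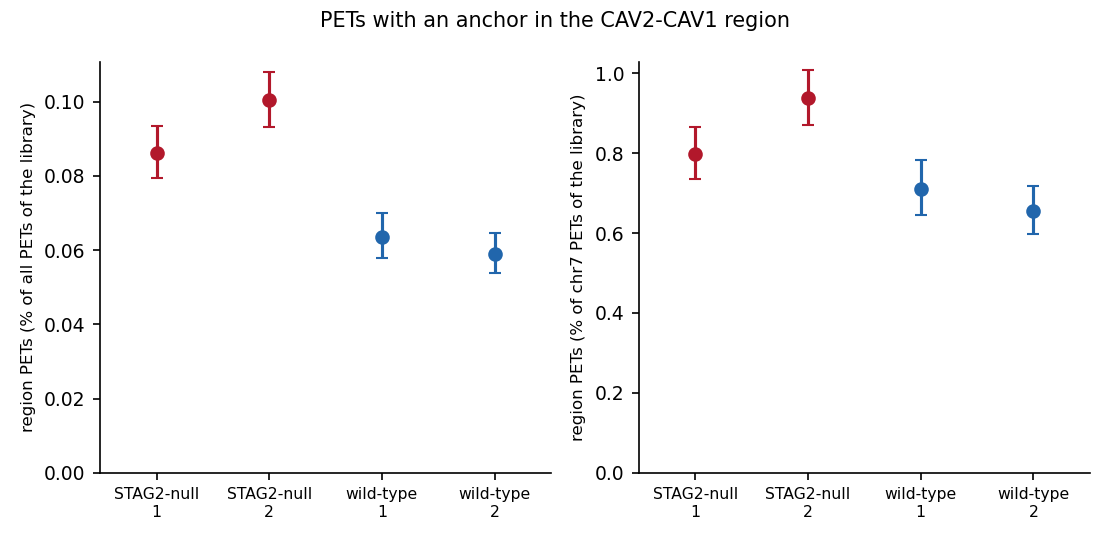
Share of PETs with an anchor in the CAV2-CAV1 region, in percent of all PETs of the library (left) and of its chromosome 7 PETs (right); points are single libraries and bars 95% Wilson intervals. Both STAG2-null libraries lie above both wild-type libraries on each scale, and on the chromosome 7 scale the intervals of STAG2-null 1 and wild-type 1 overlap.

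The contacts of the region pointed towards TES more than towards MET, in both genotypes. Partners on the TES side took 307 and 391 PETs in STAG2-null and 212 and 244 in wild-type, over 250 pairs. On the MET side there were 168 and 159 PETs in STAG2-null and 117 and 124 in wild-type, over 163 pairs. The 20 pairs with both anchors inside the region held 113 and 151 PETs in STAG2-null and 92 and 83 in wild-type. STAG2-null counts lay above wild-type counts in every one of these classes. As shares of chromosome 7 PETs, contacts inside the region overlapped, at 0.153% and 0.202% in STAG2-null and 0.155% and 0.121% in wild-type. The TES and MET sides still lay apart on that scale. How often the counts of all classes lie apart in other windows of the genome or of chromosome 7 was not counted.

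The mix of the 3 directions differed little between genotypes relative to the libraries' spread. As a share of region PETs, the TES side came to 54.0 ± 2.52% in STAG2-null and 52.2 ± 2.65% in wild-type, and contacts inside the region to 20.4 ± 1.64% in STAG2-null and 20.1 ± 2.44% in wild-type (SD, n = 2 each). The MET side made up 25.6 ± 4.16% in STAG2-null and 27.6 ± 0.210% in wild-type (SD, n = 2 each), with STAG2-null 1 above and STAG2-null 2 below both wild-type libraries.

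To set the region beside the genome, PETs were summed in windows of the same 70 kb and fitted with edgeR's quasi-likelihood test, and a window was called at a Benjamini-Hochberg adjusted p under 0.05. The region held 929.8 ± 93.9 normalised PETs (PETs per 1000000 of the scaled library size) in STAG2-null and 614.7 ± 38.7 in wild-type (SD, n = 2 each). Its log2 ratio of 0.60 ± 0.10 (SE) was called, as were 2.06% of the 21792 windows in this direction. By direction, the TES side stood at 0.65 ± 0.12 and the inside at 0.62 ± 0.16, both called. The MET side stood at 0.47 ± 0.15 and was not called, and 0.726% of the 39818 sums by direction were called higher. Because this contrast chose the region, nothing is read from these calls.

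Scaling to the totals of each chromosome lowered the region to 0.35, still called, with 0.40 on the TES side, 0.38 inside and 0.23 on the MET side, none of them called. With the totals of each 10 Mb window the values were 0.14 for the region, 0.19, 0.17 and 0.02 for the 3 directions, and none was called. Leaving out wild-type 2 put the region at 0.53, no longer called. The call of the TES side was lost without STAG2-null 2 (0.48), wild-type 1 (0.65) or wild-type 2 (0.64), and that of the inside without any of the 4 libraries (0.42 to 0.81).

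Each of the 7 anchors of the region reached the 20 PETs set for a test. The one at the CAV1 start, chr7:116159015-116170396 (hg19), is 1 of 2 region anchors for which the authors' deposited table gives flags, and it carried all 4 of them: promoter, CTCF, FLI1 and H3K27ac. It held 293 and 342 PETs in STAG2-null and 200 and 218 in wild-type, to 100 partners. With 1053 PETs in all it ranked 90 among the anchors of the genome and 4 on chromosome 7. Its contacts summed to 458.3 ± 43.9 normalised PETs for STAG2-null and 294.4 ± 14.3 in wild-type (SD, n = 2 each), a log2 ratio of 0.64 ± 0.13 (SE). The genotypes did not overlap at this anchor, which is 11382 bp wide and had 92.5 PETs per kb.

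An anchor 24.7 kb towards TES, chr7:116137363-116142593, was flagged for H3K27ac, a mark of active enhancers and promoters, and not for CTCF, FLI1 or a promoter. It held 94 and 131 PETs in STAG2-null and 68 and 66 in wild-type, with a log2 ratio of 0.78 ± 0.18. In RefSeq the CAV2 start lies 25.3 kb before that of CAV1 (GRCh38.p14), but no deposited table places the CAV2 start at an anchor, and hg19 gene positions were not used here. Contacts of CAV2 itself are therefore not separated from those of the region. The next anchor, 13.1 kb before the CAV1 anchor at chr7:116150045-116153113, held 65 and 91 PETs in STAG2-null and 37 and 57 in wild-type (0.77 ± 0.21). Both anchors lay higher in each STAG2-null library than in either wild-type library.

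The 3 anchors on the MET side of the CAV1 start had log2 ratios of 0.22 to 0.61. At 13.2 kb, chr7:116175680-116180041 held 88 and 81 PETs in STAG2-null and 64 and 56 in wild-type (0.53 ± 0.19). At 25.8 kb, chr7:116188108-116192825 held 49 and 68 in STAG2-null and 54 and 49 in wild-type (0.22 ± 0.22), so that its genotypes overlapped. At 36.2 kb, chr7:116196820-116205028 held 90 and 106 in STAG2-null and 63 and 69 in wild-type (0.61 ± 0.19). The anchor at the TES end, chr7:116135246-116136629, was the weakest, with 22 and 33 PETs in STAG2-null and 27 and 19 in wild-type (0.29 ± 0.31), and its genotypes overlapped too.

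In 5 of the 7 anchors both STAG2-null counts exceeded both wild-type counts, as they did in 15.4% of all 60425 tested anchors. The CAV1 anchor and those 24.7 and 13.1 kb before it, 3 of 7, were called higher, as were 0.412% of tested anchors. Neither count is evidence, since the contrast chose the region. After scaling to each chromosome's totals the 7 anchors had a median log2 ratio of 0.36 (from -0.03 to 0.53, 6 above 0) and after scaling to each 10 Mb window 0.15 (from -0.24 to 0.32, 5 above 0), and none was called. The CAV1 anchor stood at 0.39 and 0.18 with these scalings, and its call was lost when any of the 4 libraries was left out (0.54 to 0.74). The anchors 24.7 and 13.1 kb before it lost theirs in the same way, at 0.54 to 0.99 and 0.52 to 1.004. The first of these was not called by DESeq2 either (0.78, adjusted p 0.149), nor the second with pairs of at least 20 kb only (0.74, edgeR adjusted p 0.213). At the edges of the interval, the outermost anchors inside stood at 0.28 and 0.61 as log2 ratios of library shares, and the nearest anchors outside at 1.05 on the TES side and 0.57 on the MET side.

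**Figure D2:**
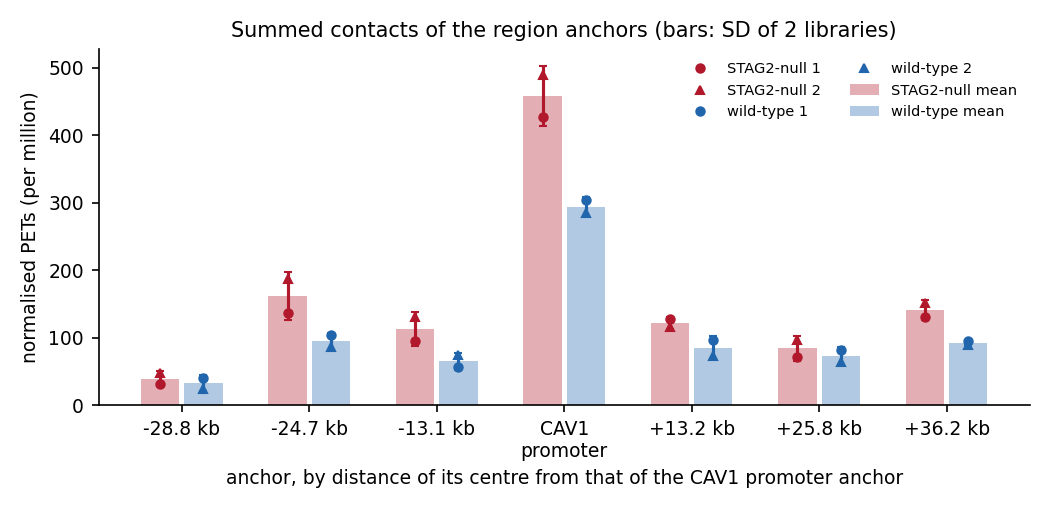
Normalised PETs (per 1000000) summed over all pairs of each of the 7 anchors of the region, from the TES side (left) to the MET side (right), labelled by distance from the CAV1 promoter anchor; bars are means, error bars SDs of 2 libraries, points single libraries. The CAV1 promoter anchor averages 458.3 in STAG2-null and 294.4 in wild-type, and the anchors at -28.8 and +25.8 kb are those whose libraries overlap between genotypes.

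As a share of region PETs, contacts of the CAV1 promoter anchor came to 49.3 ± 0.737% in STAG2-null and 47.9 ± 0.588% in wild-type (SD, n = 2 each). In bins of 25 kb, the bin centred 62.5 kb towards TES held 48 and 44 PETs in STAG2-null and 26 and 25 in wild-type. A further peak, centred at 262.5 kb on the same side, held 23 and 38 PETs in STAG2-null and 16 and 20 in wild-type. Near the anchor on the MET side, the bin centred at 12.5 kb held 23 and 18 PETs in STAG2-null and 15 and 10 in wild-type. The bin at 37.5 kb held 31 and 35 in STAG2-null and 24 and 19 in wild-type. Both bins lay apart in counts not scaled to chromosome 7. As shares of chromosome 7 PETs, the bin at 12.5 kb overlapped between genotypes, and the bin at 37.5 kb still lay apart. At 62.5 kb there were 17 and 27 PETs in STAG2-null and 17 and 19 in wild-type, which overlapped. Farther out, no anchor lay between 73.6 and 147.6 kb from the CAV1 anchor on this side, so the bins there could hold no PETs. The bin centred at 137.5 kb held 3 and 2 PETs in STAG2-null and 1 and 0 in wild-type. The bin centred at 262.5 kb held 5 and 0 in STAG2-null and 5 and 4 in wild-type, and the one at 287.5 kb held 10 and 12 in STAG2-null and 5 and 12 in wild-type, and in both the genotypes overlapped.

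**Figure D3:**
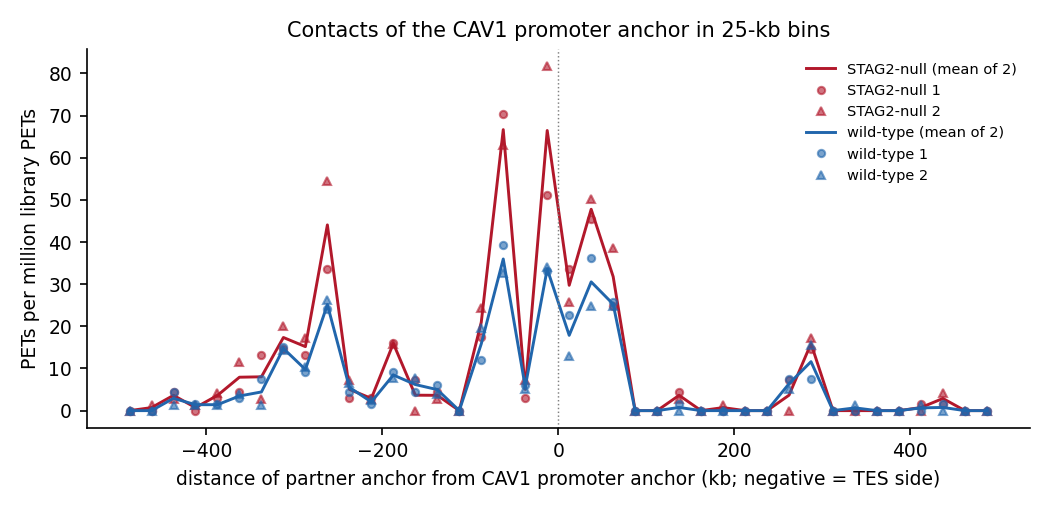
PETs between the CAV1 promoter anchor and partners in 25-kb bins, per 1000000 PETs of the library, against the partner's distance in kb (negative is the TES side, positive the MET side); lines are means of 2 libraries and points single libraries. The larger peaks stand near -262.5, -62.5, -12.5 and 37.5 kb, each with both STAG2-null libraries above both wild-type libraries. The libraries overlap at 62.5 kb and at the lower peak near 287.5 kb.

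The largest contact of the region joined the CAV1 promoter anchor to chr7:116104414-116111965, 56.5 kb towards TES, an anchor with the FLI1 and H3K27ac flags and neither the CTCF nor the promoter flag. It held 37 and 39 PETs in STAG2-null and 17 and 13 in wild-type, so every STAG2-null count was above every wild-type count. On the normalised scale these were 53.3 ± 0.379 in STAG2-null and 21.9 ± 5.73 in wild-type (SD, n = 2 each), a log2 ratio of 1.29 ± 0.33 (SE). It was the contact through which the region was chosen. Scaled to each chromosome the ratio was 1.12 and to each 10 Mb window 0.91, not called in either case. The call was also lost when any of the 4 libraries was left out, with values of 1.03 to 1.57. Without this pair the region's log2 ratio of library shares was 0.57.

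The CAV1 promoter anchor also met its neighbours inside the region. With the anchor 24.7 kb before it, it shared 20 and 31 PETs in STAG2-null and 15 and 12 in wild-type (0.86 ± 0.36). With the anchor at 13.1 kb it shared 15 and 26 in STAG2-null and 7 and 14 in wild-type (0.91 ± 0.40). On the MET side, the pair at 13.2 kb held 23 and 18 in STAG2-null and 15 and 10 in wild-type (0.66 ± 0.39). None of these was called, although in counts not scaled to chromosome 7 the genotypes did not overlap in any of them. The pair at 25.8 kb likewise lay apart, with 9 and 11 PETs in STAG2-null and 7 and 5 in wild-type (0.68 ± 0.54). In contrast, the pair at 36.2 kb held 10 and 12 PETs in STAG2-null and 10 and 11 in wild-type (0.02 ± 0.47).

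Towards TES the CAV1 promoter anchor had 6 further tested contacts beyond the region. At 84.6 kb it held 11 and 15 PETs in STAG2-null and 7 and 10 in wild-type (0.56 ± 0.47). At 264.9 kb it held 15 and 17 in STAG2-null and 10 and 8 in wild-type (0.77 ± 0.44), and at 312.6 kb 8 and 11 in STAG2-null and 5 and 4 in wild-type (1.01 ± 0.59). Those 3 did not overlap between genotypes and were not called. Contacts at 183.4 kb (6 and 7 PETs in STAG2-null and 3 and 6 in wild-type) and at 252.4 kb (3 and 8 in STAG2-null and 3 and 6 in wild-type) overlapped between genotypes, with ratios of 0.47 ± 0.64 and 0.24 ± 0.67. At 62.0 kb, beside the largest contact, the counts were 8 and 4 in STAG2-null and 4 and 8 in wild-type (-0.04 ± 0.61).

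Towards MET the largest contact of the CAV1 promoter anchor was the one at 63.4 kb, with chr7:116221565-116234601. It held 17 and 27 PETs in STAG2-null and 16 and 19 in wild-type (0.28 ± 0.35), and the genotypes overlapped. At 46.3 kb there were 7 and 8 PETs in STAG2-null and 4 and 2 in wild-type (1.24 ± 0.68), lying apart but resting on few PETs. At 275.8 kb, chr7:116437188-116443824, there were 3 and 8 in STAG2-null and 1 and 8 in wild-type (0.24 ± 0.67). The last of these anchors is part of a loop that the authors' deposited table lists under MET.

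The other 8 tested pairs of the region did not touch the CAV1 promoter anchor. The strongest joined the anchor with the FLI1 flag to the one 24.7 kb before CAV1, over 31.8 kb, and held 5 and 24 PETs in STAG2-null and 9 and 7 in wild-type (0.80 ± 0.47). STAG2-null 2 alone was high there, and without it the ratio was -0.67. Among the others, 3 lay apart between genotypes. The anchors at 84.6 and 24.7 kb towards TES shared 7 and 6 PETs in STAG2-null and 4 and 3 in wild-type (0.82 ± 0.68). Those at 24.7 and 13.1 kb shared 9 and 9 in STAG2-null and 5 and 7 in wild-type (0.53 ± 0.56). Those at 25.8 and 36.2 kb towards MET shared 7 and 7 in STAG2-null and 4 and 6 in wild-type (0.43 ± 0.62).

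The remaining 4, all between anchors on the MET side of the CAV1 promoter anchor, inside the region or beyond it, overlapped between genotypes. The anchors at 36.2 and 63.4 kb shared 10 and 8 PETs in STAG2-null and 4 and 8 in wild-type (0.53 ± 0.56), and those at 36.2 and 46.3 kb 6 and 4 in STAG2-null and 5 and 5 in wild-type (-0.05 ± 0.67). The anchor at 13.2 kb shared 5 and 8 with that at 36.2 kb in STAG2-null and 5 and 3 in wild-type (0.64 ± 0.66). With that at 25.8 kb it shared 5 and 8 in STAG2-null and 8 and 1 in wild-type (0.47 ± 0.64), where the wild-type libraries differed most.

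Of the 23 tested pairs, 15 involved the CAV1 promoter anchor. The median log2 ratio of the 23 was 0.56, against -0.04 for all 11872 tested pairs, and 21 lay above 0. In 12 of the 23, both STAG2-null counts exceeded both wild-type counts, as in 18.0% of all tested pairs and 31.0% of those on chromosome 7. The 56.5-kb contact was the 1 called pair, where 0.0927% of tested pairs were called higher. Scaled to chromosome totals the median was 0.40 in the region and 0.11 over all tested pairs, and scaled to 10 Mb windows it was 0.19 in the region and 0.12 over all.

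**Figure D4:**
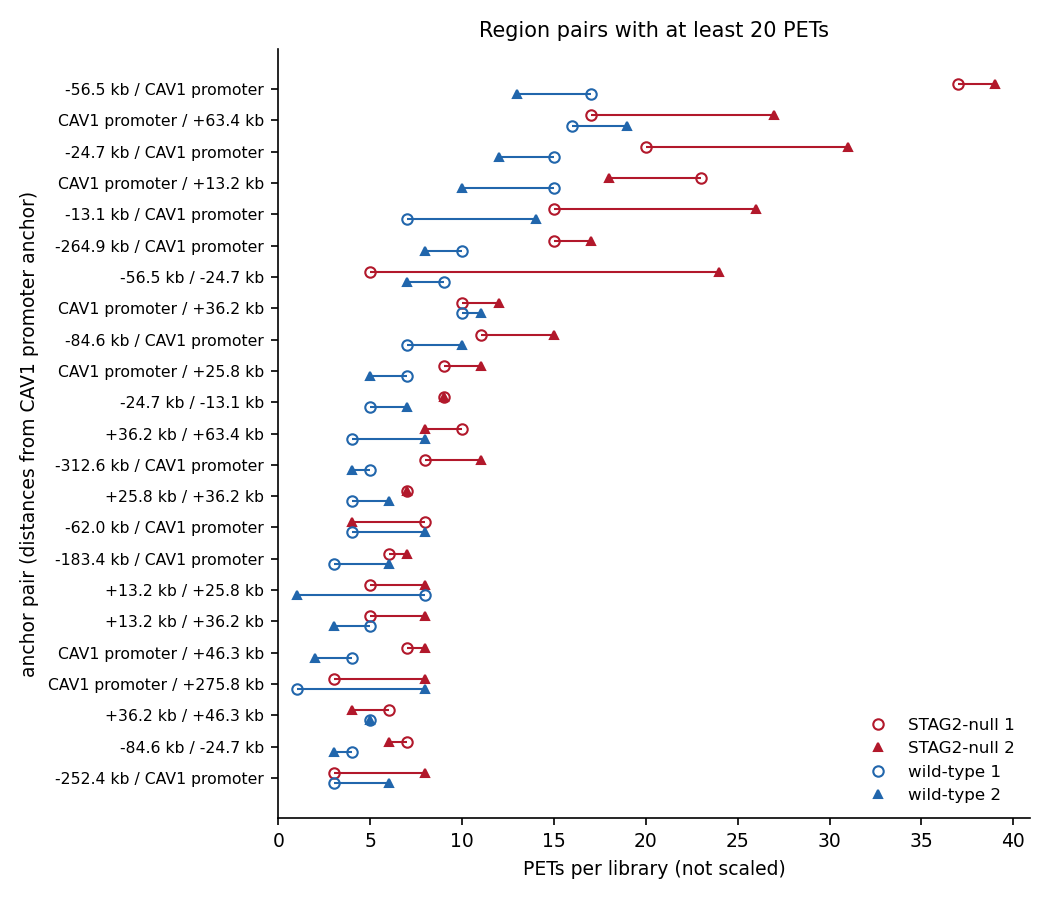
Unscaled PETs in each library for the 23 anchor pairs of the region with at least 20 PETs, ordered by their total; each pair is named by the distance of its anchors from the CAV1 promoter anchor (negative is the TES side), and a line joins the 2 libraries of a genotype. The contact between -56.5 kb and the promoter stands out at 37 and 39 PETs in STAG2-null and 17 and 13 in wild-type, and the contact between -56.5 and -24.7 kb is spread from 5 to 24 PETs in STAG2-null.

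Most pairs of the region were thin. Of the 433, 330 held at most 4 PETs, 163 and 163 PETs in the STAG2-null libraries and 117 and 124 in the wild-type libraries when summed. These thin pairs had a log2 ratio of library shares of 0.48, against 0.75 for the 23 tested pairs. PETs in both genotypes were found for 193 pairs, in STAG2-null alone for 142 and in wild-type alone for 98, and no pair found in one genotype alone held more than 5 PETs. At this depth such pairs cannot be called absent from the other genotype. How the other pairs of chromosome 7 divide in this way was not counted, and the whole chromosome held more PETs in STAG2-null. In all 4 libraries 65 pairs were seen. The authors' table of high-confidence loops held 40 of the 433, of which 24 touched the CAV1 promoter anchor. The STAG2-null sum was larger in 31 of these 40, smaller in 6 and equal in 3. The same count was not made over all high-confidence loops or those of chromosome 7, so nothing is read from it.

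The region's contacts reached 65 anchors on the TES side, up to 1985 kb away, and 63 on the MET side, up to 1934 kb. On the TES side the 5 leading partners took 42.8% of 1154 PETs. The leading one was the anchor with the FLI1 flag, with 54 and 91 PETs in STAG2-null and 35 and 31 in wild-type over all region anchors. Its contacts to the rest of the chromosome also lay apart, at 99 and 127 in STAG2-null and 57 and 61 in wild-type. The anchor chr7:116077581-116082567 shared 29 and 27 PETs with the region in STAG2-null and 12 and 22 in wild-type. For chr7:115897804-115901716 these were 26 and 30 in STAG2-null and 19 and 15 in wild-type. The other two, chr7:116101458-116103883 and chr7:115903522-115904989, had 17 and 17 PETs in STAG2-null against 6 and 16 in wild-type, and 11 and 19 in STAG2-null against 7 and 10 in wild-type. These 5 lay apart in counts not scaled to chromosome 7, with the STAG2-null counts higher. They are sums over all region anchors, and no share of such sums was taken elsewhere. The 31.0% of tested pairs on chromosome 7 that lay apart in this direction is for single pairs, so it is no like measure. Weaker partners did not all lie apart. The anchor chr7:115910691-115913863, of rank 7 and picked after its values were seen, had 10 and 12 PETs in STAG2-null and 11 and 13 in wild-type.

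On the MET side the 5 leading partners took 60.9% of 568 PETs. The first, chr7:116221565-116234601, had 41 and 53 PETs with the region in STAG2-null and 34 and 39 in wild-type. The next were chr7:116209858-116212067, with 22 and 14 in STAG2-null and 12 and 9 in wild-type, and chr7:116213594-116215544, with 16 and 17 in STAG2-null and 9 and 6 in wild-type. These 3 lay higher in STAG2-null in unscaled counts. They were not scaled to chromosome 7, which held more PETs in STAG2-null, and no share of such sums was taken elsewhere. The others, 275.8 and 285 kb away, did not. The anchor chr7:116437188-116443824 had 9 and 15 in STAG2-null and 9 and 15 in wild-type, and chr7:116448425-116450934 had 9 and 3 in STAG2-null and 6 and 8 in wild-type.

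On both sides the genotypes lay apart at some distances and overlapped at others. Contacts of 20 to 50 kb towards MET held 33 and 31 PETs in STAG2-null and 17 and 21 in wild-type. Those of 200 to 500 kb, which include the anchors of the loop listed under MET, held 45 and 37 in STAG2-null and 38 and 41 in wild-type, overlapping between genotypes. Over 500 kb they were again apart, at 33 and 31 in STAG2-null and 17 and 22 in wild-type. With both anchors of the MET-listed loop together, the region shared 20 and 17 PETs in STAG2-null and 11 and 21 in wild-type. Towards TES the class of 200 to 500 kb held 140 and 191 PETs in STAG2-null and 107 and 116 in wild-type, which did not overlap. The class of 20 to 50 kb on that side overlapped, at 15 and 54 in STAG2-null and 16 and 13 in wild-type, and at 100 to 200 kb the counts touched, at 37 and 33 in STAG2-null and 28 and 33 in wild-type. Whether the 2 sides differ in their change was not tested.

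The region's contacts were spread over distance differently from all pairs, with more in some classes and fewer in others. In STAG2-null 32.0 ± 0.751% and in wild-type 34.6 ± 0.261% of the region's PETs lay in contacts of 200 to 500 kb (SD, n = 2 each). Of all PETs these were 19.9 ± 0.160% in STAG2-null and 19.9 ± 0.238% in wild-type. Contacts under 20 kb took 11.9 ± 0.0552% in STAG2-null and 11.0 ± 1.19% in wild-type for the region, and 21.5 ± 0.935% in STAG2-null and 19.6 ± 0.502% in wild-type for all pairs. Only 8 of the 433 region pairs were under 20 kb. The longest class, over 500 kb, was also smaller in the region, at 8.90 ± 0.884% in STAG2-null and 7.44 ± 0.449% in wild-type, than in all pairs, at 18.2 ± 0.505% in STAG2-null and 17.2 ± 0.364% in wild-type (SD, n = 2 each). At 100 to 200 kb the region held 6.55 ± 1.80% in STAG2-null and 8.25 ± 0.247% in wild-type, and all pairs 14.01 ± 0.0983% in STAG2-null and 15.3 ± 0.163% in wild-type. These differences between the region and all pairs were not tested.

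The neighbourhood of the region was also richer in PETs in STAG2-null. Of the 26 windows of 70 kb within 1 Mb that reached 20 PETs, the region included, all 26 had a log2 ratio above 0. Their median was 0.47, and 10 were called higher. Ratios above 0 were found in 1282 of the 1628 windows of chromosome 7 and in 77 of the 95 between 110 and 120 Mb. The adjoining windows stood at 0.70 ± 0.12 on the TES side and 0.55 ± 0.11 on the MET side, and they share PETs with the region, since a contact between windows counts in each. Farther off, the windows at 280 and 350 kb towards TES stood at 0.57 ± 0.11 and 0.62 ± 0.12, and the window at 280 kb towards MET at 0.46 ± 0.12. The highest value, 1.13 ± 0.33 at 210 kb towards MET, rested on 88 PETs.

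Over the 1628 windows of chromosome 7 the median log2 ratio was 0.26, with quartiles of 0.04 and 0.45. There 113 windows (6.94%) were called higher. The region's 0.60 was above 85.6% of them, and above 71.6% of the 95 windows between 110 and 120 Mb, whose median was 0.35. The region stood out more by its level than by its ratio: no window of that stretch had more PETs, 17 on chromosome 7 did, and 99.1% of all windows of the genome had fewer. Single anchors within 1 Mb gave the same picture. The 7 region anchors had a median log2 ratio of library shares of 0.61, the 49 anchors on the TES side 0.50 and the 41 on the MET side 0.56.

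**Figure D5:**
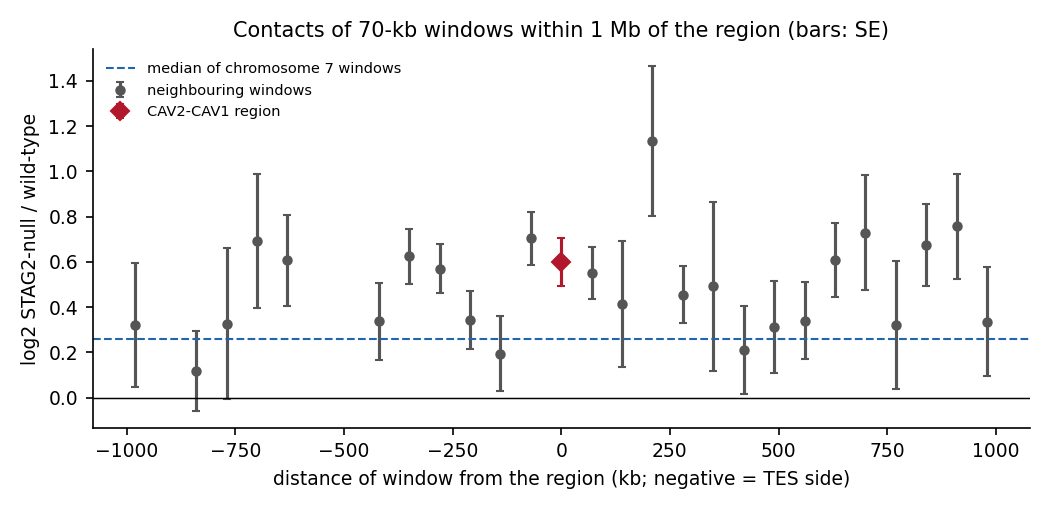
Log2 ratio of STAG2-null over wild-type PETs in windows of 70 kb within 1 Mb of the CAV2-CAV1 region, against distance in kb (negative is the TES side); bars are SEs, and the dashed line is the median of chromosome 7 windows, 0.26. All 26 windows lie above 0, and the region (diamond, 0.60) lies below its neighbour on the TES side and above the one on the MET side.

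In the authors' deposited table of differential loops the log2 ratios are of wild-type over STAG2-null, so that a negative value means more contact in STAG2-null. It lists 2 loops of the CAV1 promoter anchor under both CAV2 and CAV1. The 56.5-kb loop had a deposited log2 ratio of -1.32 with an adjusted p of 0.0111 by independent hypothesis weighting, and the 24.7-kb loop had -0.90 with 0.0963 in the authors' deposited table. A loop of 28115 bp between 2 anchors outside the region, listed under CAV2, had a deposited value of -1.27 (adjusted p 0.0694 in the authors' deposited table). It shares the anchor with the FLI1 flag with the 56.5-kb loop. The loop listed under MET, 17738 bp long, had a deposited value of -1.47 (adjusted p 0.0885 in the authors' deposited table). These values come from the same 4 libraries and are no separate evidence.

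Among 13 genes of the caveola coat and its accessory proteins, the deposited tables placed 3 at an anchor, CAV1, PACSIN3 and ROR1, and CAV1, the anchor through which the region was chosen, was the 1 that was called. Over all tested anchors 0.412% were called higher and 15.4% lay apart in that direction, and with 3 genes nothing is read from the list. The promoter anchor of PACSIN3, which encodes a membrane-bending protein, held 83 and 70 PETs in STAG2-null and 65 and 78 in wild-type (0.14 ± 0.19), and its genotypes overlapped. That of ROR1, a receptor that can hold caveolin-1 and cavin-1 together, had 53 and 82 in STAG2-null and 31 and 50 in wild-type (0.78 ± 0.22), which lay apart without being called. None of the 9 listed neighbours, TES and MET among them, had a start placed at an anchor, so their own contacts were not measured here.

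By its pattern over the 4 libraries, with level removed by centring, the CAV1 promoter anchor was most like that of TLE2, a Groucho-family corepressor, among 250 genes placed at other anchors. The Euclidean distance of their centred log2 normalised PETs was 0.0740, while the TLE2 anchor held 94.8 and 104.5 normalised PETs in STAG2-null and 64.0 and 58.7 in wild-type, well under those of CAV1. HES1, a transcriptional repressor downstream of Notch, followed at 0.125 with a log2 ratio of 0.73 ± 0.16, and RGS4, a regulator of G-protein signalling, at 0.140. The next 5 names, FUT5, NDUFA11, VMAC, AC024592.12 and AC104532.2, share 1 anchor on chromosome 19 at 0.147. With 4 libraries, any anchor with a gain of similar size in STAG2-null comes out as alike, and the compared genes are those the authors placed at differential loops.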

How the data were processed

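SMC1 HiChIP was measured in 4 libraries of A673 cells. The authors deposited, per library, the count of PETs and a p-value of each anchor pair with at least 1 PET. HiC-Pro and hg19 are named per the submitters' processing notes, without versions. The sources used here do not give the loop caller's settings. The deposited differential table gives a log2 ratio and adjusted p-values for 650 loops, and the high-confidence table counts for 22680, per the file headers. Count columns of both equalled the per-library counts in order at all loops.

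Counts of pairs, anchors, windows of 70 kb and window sides with at least 20 PETs were fitted over the whole genome with edgeR 4.0.16 (R 4.3.3), as glmQLFit with robust estimation and glmQLFTest on genotype alone, with library totals over all pairs, TMM factors and Benjamini-Hochberg adjustment. The default, without robust estimation, was fitted first and called 23 pairs, 529 anchors, 991 windows and 792 window sides. Robust estimation was then taken, after other settings had also been tried on the pairs, because its count of called pairs equalled that of an earlier description of these data. It called 26, 580, 1000 and 804, and no call at the region differed between both fits. Errors of log2 ratios are standard errors, and distances run between anchor midpoints. On simulated counts, 5% of 100 pairs and 20% of 100 anchors with 2-fold changes were recovered, and 73% and 90% of those with 4-fold changes, with 2 false calls each. Most simulated 2-fold changes of pairs and anchors were thus missed, and windows were not simulated. The draws used the same set dispersion for every feature, not one estimated from these libraries. They therefore do not give the recovery or error rate of the real counts.

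Alternatives were scaling (plain totals, chromosome, 10 Mb), DESeq2 1.42.0, filters, merged anchors, longer pairs, a replicate block and leaving out each library. Libraries of a genotype were not copies of one file: their counts differed beyond sampling noise (chi-square per degree of freedom 1.17 for STAG2-null and 1.06 for wild-type), which does not tell separate cultures from repeats of one. Named were every region anchor and every region pair with at least 20 PETs, the 5 leading partners a side and the 5 genes most alike, ties kept. The members, gene lists and tests were chosen with earlier results of these data known. Sequences came from RefSeq tables on GRCh38.p14.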

Additional observations from a re-analysis of the deposited data

How the results depend on the processing

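The limits are those of 2 libraries a genotype and of thin pairs: most calls were lost on leaving out 1 library. The 3 directions, the region total and the CAV1 promoter anchor stayed above 0 under every alternative tried. For the 56.5-kb contact the log2 ratio was 1.12 with scaling per chromosome, 0.91 per 10 Mb window, 1.29 in DESeq2, 1.31 with at least 10 PETs, 1.14 with anchors merged within 5 kb, and 1.03 to 1.57 on leaving out a library, none of them called. The CAV1 promoter anchor stood at 0.39 per chromosome, 0.18 per 10 Mb window and 0.54 to 0.74 on leaving out a library, not called. The region total stood at 0.14 per 10 Mb window, not called, and 0.50 to 0.70 on leaving out a library. The TES side stood at 0.40 and 0.19 with the 2 scalings and 0.48 to 0.78 on leaving out a library, and the inside at 0.38, 0.17, 0.61 in DESeq2, 0.53 for pairs of at least 20 kb and 0.42 to 0.81, not called. The MET side was called at 0.47 with at least 40 PETs, and stood at 0.40 to 0.54 on leaving out a library. The region share was 0.34 on the chromosome 7 scale, and 0.49 to 0.71 on leaving out a library.

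Some uncalled values turned sign. Scaling per 10 Mb window gave -0.13 for the contacts at 252.4 and 275.8 kb, -0.094 at 63.4 kb, -0.35 at 36.2 kb (-0.15 per chromosome), -0.17 for the anchor at the TES end and -0.24 for the anchor at 25.8 kb (-0.032 per chromosome). Plain totals gave 0.049 for the 62.0-kb contact (0.092 for pairs of at least 20 kb) and 0.046 for the pair 116196820 to 116209858. On leaving out a library the ranges were -0.57 to 0.73 (252.4 kb), -0.66 to 0.45 (62.0 kb), -0.67 to 1.48 (31.8-kb pair), -0.071 to 0.10 (36.2 kb), -0.043 to 0.53 (63.4 kb), -0.57 to 2.21 (275.8 kb), -0.42 to 2.58 (116175680 to 116188108), -0.40 to 0.26 (116196820 to 116209858), -0.042 to 0.68 (TES-end anchor) and -0.016 to 0.43 (25.8-kb anchor). The cause was not tested.

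Over the genome, 26 pairs, 580 anchors, 1000 windows and 804 window sides were called. Scaling per chromosome gave 10, 104, 398 and 186, scaling per 10 Mb window 6, 0, 81 and 52, and DESeq2 0, 22, 175 and 75. DESeq2 gave no adjusted p for 57403 of 60425 anchors, 17745 of 21792 windows and 37055 of 39818 sides. Its counts for these therefore cover fewer features than those of edgeR. At an unadjusted p under 0.05, DESeq2 had 57 pairs higher and 84 lower, and 10 Mb scaling in edgeR had 2169 anchors higher and 2457 lower. Pairs numbered 16 with plain totals, 10 with at least 10 PETs, 5 with merged anchors and 9 at 20 kb or more, and anchors 243 at 20 kb or more. Leaving out a library gave 0 to 7 pairs, 3 to 77 anchors, 176 to 1016 windows and 0 to 162 sides.

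Replicate numbers did not pair the libraries (r = 0.0031 between deviations of same-numbered libraries). With the replicate number as a block the region stood at 0.60, the CAV1 promoter anchor at 0.64 and the 56.5-kb contact at 1.29, and 24 pairs were called.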
